A study of Mus musculus with 4 samples.

Results

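The 8 genes described here encode parts of the complement system: the 3 chains of C1q (C1qa, C1qb and C1qc), the proteins C3, factor B (Cfb) and properdin (Cfp), and the receptors C3ar1 and C5ar1. They were selected by gene symbol, with input levels and peak values from these same tables already known, so the values below are a description and carry no test. They are 8 of the 14804 genes that had an m6A peak in either genotype, and they hold 13 of the 36507 WT peaks and 13 of the 38697 cKO peaks. The libraries come from bone-marrow-derived macrophages of C57BL/6 mice, grown with M-CSF, the macrophage growth factor, for 7 days and then kept for 24 hours with MC38, a colon carcinoma line from mice. All mice carried floxed Mettl3 alleles, Mettl3 being the catalytic subunit of the enzyme that adds N6-methyladenosine (m6A) to messenger RNA. The WT group (Mettl3fl/fl) has no Cre, and the cKO group (LysM-cre, Mettl3fl/fl) adds a Cre under the promoter of lysozyme M, a gene of myeloid cells. Whether MC38 cells were removed before RNA extraction is not stated. For each genotype, RNA fragments bound by an antibody to m6A made up 1 library (IP), and fragments not passed over the antibody made up the other (input). No group with the Cre and without floxed Mettl3 was analysed here, so effects of the Cre and of Mettl3 loss cannot be told apart.

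Complement is a cascade of plasma proteins that tags microbes and dying cells for uptake. C1q, built from its A, B and C chains, recognises bound antibodies and cell debris and starts the classical pathway. C3 is the component on which all pathways meet, factor B supplies the protease that amplifies C3 cleavage, and properdin stabilises that protease complex. C3ar1 and C5ar1 are receptors for the small fragments released from C3 and C5. Macrophages make C1q, properdin and both receptors, and make more C3 and factor B when activated. m6A lies mostly in a short motif known as DRACH, most typically GGAC followed by another base, and is found often near stop codons and in 3′ UTRs.

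The GGACT motifs inside the strongest WT peak of each gene are printed because they show where the best-known form of the motif lies under the m6A signal. Motifs were searched on the transcript strand only. DRACH stands for A, G or T, then A or G, then AC, then A, C or T, so every GGAC not followed by G is also a DRACH. The strongest WT peaks of C1qc and C3 held no GGACT, so for these genes a GGACC and the GGACA of their 3′ peaks are given. Capitals mark the motif. Sequences run 5′ to 3′ along the transcript, from GENCODE transcripts of the mm10 build, all on the minus strand. The number beside each is the distance in bases from the last base of the stop codon to the A of the motif, with minus for upstream.
C1qa, chr4:136895980-136896004, 3′ UTR, 162: agggcactgaGGACTgatgtttctg
C1qb, chr4:136880792-136880816, coding, -515: gggatccctgGGACTccaggcaaag
C1qb, chr4:136880701-136880725, coding, -424: gcgattctggGGACTacggggctac
C1qc, chr4:136890476-136890500, coding, -445: ggttgccaggGGACCcaggccccag
C3, chr17:57204119-57204143, coding, -118: tcattgggaaGGACAcgtgggtgga
Cfb, chr17:34856491-34856515, coding, -76: cttatgcccgGGACTtccacatcaa
Cfp, chrX:20925692-20925716, coding, -110: accttctgggGGACTccacggccac
C3ar1, chr6:122851134-122851158, coding, -1323: ttgtctattgGGACTgctaggcaat
C3ar1, chr6:122850688-122850712, coding, -877: atgattattgGGACTacgtgtacaa
C3ar1, chr6:122850095-122850119, coding, -284: tttatctgctGGACTccataccatc
C5ar1, chr7:16248634-16248658, coding, -608: aaggtccgcgGGACTggcctggcat
C5ar1, chr7:16248543-16248567, coding, -517: aggcatataaGGACTtctactcaga

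The C1q transcripts were short and rich in GGAC. C1qa had 12 GGAC in 1040 bases, or 11.5 per kb, C1qb 12 in 1088 bases, or 11.0 per kb, and C1qc 9 in 1203 bases, or 7.48 per kb. These densities exceeded those of 99.3%, 99.0% and 92.2% of the 20557 transcripts listed with a peak, whose median was 4.15 per kb. The receptor transcripts were at 3.25 per kb for C3ar1 and 3.63 per kb for C5ar1, both below that median, as was Cfp at 3.06, while C3 (4.67) and Cfb (6.58) were above it. The broader DRACH motif did not follow this order, with C1qb at 26.7 per kb, C1qa at 19.2 and C1qc at 14.1 against a median of 20.4. All 13 WT peaks of the 8 genes held a DRACH, as did 95.0% of all WT peaks placed on exons, and 10 of the 13 held a GGAC, against 65.2% of all. Longer peaks hold more motifs, so each peak was also set beside peaks of its own exonic length within 20%. The 565-base upstream peak of C1qa held 7 GGAC, against a median of 2 in such peaks, and the C1qb peak 7 against 3, but the C1qc peak held 2 against 3. The long peak of C3ar1 held 11 against 10, and that of C5ar1 6 against 8. A motif match is a description of sequence and not a measured m6A site.

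The receptors carried the strongest m6A enrichment of the 8 genes in both genotypes. Enrichment is the authors' log2 of IP over input per peak, here in the separate peak list of each genotype, and the largest adjusted p of the 26 peaks in those lists was 2.32e-08. In C3ar1 (chromosome 6, 122847138 to 122856161), the main peak reached 2.97 (WT) and 2.65 (cKO), above 91.4% of WT and 90.4% of cKO peaks. It covered 2400 exonic bases in the WT, 1415 of them coding and 985 in the 3′ UTR, and so nearly the whole coding sequence. A further pair of weaker peaks lay far down the 2685-base 3′ UTR, with WT values of 0.60 and 1.01 and cKO values of 0.75 and 1.40. C5ar1 (chromosome 7, 16246743 to 16259540) had 1 peak per genotype, at 2.69 in the WT over 1975 exonic bases and 2.71 in the cKO over 2075. Both receptors thus had 1 strong block of signal running from near the start of the coding sequence into the 3′ UTR, in either genotype.

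The 3 C1q genes lie side by side on chromosome 4 within 18675 bases, in the order C1qb, C1qc, C1qa, all on the minus strand, and had peaks of middling strength. C1qa (136895917 to 136898803) had a peak over the stop codon and 3′ UTR with WT and cKO values of 1.52 and 1.39, and an upstream peak with 1.24 and 0.98. Together its WT peaks covered 88.0% of the transcript, and its cKO peaks 74.5%. The WT upstream peak reached the transcript start and included all 65 bases of the 5′ UTR, while the cKO upstream peak held coding sequence only. C1qb (136880129 to 136886187) had 1 peak (1.66 for the WT, 1.41 for the cKO), covering the 3′ UTR and most of the coding sequence. C1qc (136889804 to 136893065) had 1 WT peak of 750 bases at 1.02. In the cKO list the same stretch held a pair of peaks, at 1.29 over the stop codon and 3′ UTR and at 0.79 in the coding sequence, with 325 bases between them that the WT peak covered. All WT peaks of these genes were below 1.7 on the log2 scale and fell between the 37.5th and the 70.4th percentile of the WT list.

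C3, Cfb and Cfp each had a peak at the 3′ end, and their peaks covered less of the transcript than those of the other 5 genes. The covered share of the transcript in the WT and the cKO was 7.17% and 5.84% for C3, 16.8% and 18.7% for Cfp, and 26.6% and 33.9% for Cfb. C3 (chromosome 17, 57203970 to 57228136, 41 exons) had a peak at its 3′ end, of 1.36 over 225 exonic WT bases and of 1.76 over 300 cKO bases. A second C3 peak, in coding sequence at positions -2749 to -2607 from the last base of the stop codon, was listed for the WT alone, at 0.57. That value exceeded only 1.75% of WT peaks. Cfb (transcript at chromosome 17, 34856384 to 34862514) had a 3′ peak with WT and cKO values of 1.25 and 1.40, and a 5′ UTR peak with the same ends in both lists, at 0.78 and 0.82. Gm20547, an annotated gene that overlaps Cfb on the same strand, had 0 peaks in either list. Cfp (chromosome X, 20925454 to 20931555) had 1 peak over the stop codon, with 1.52 for the WT and 1.51 for the cKO.

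**Figure D1:**
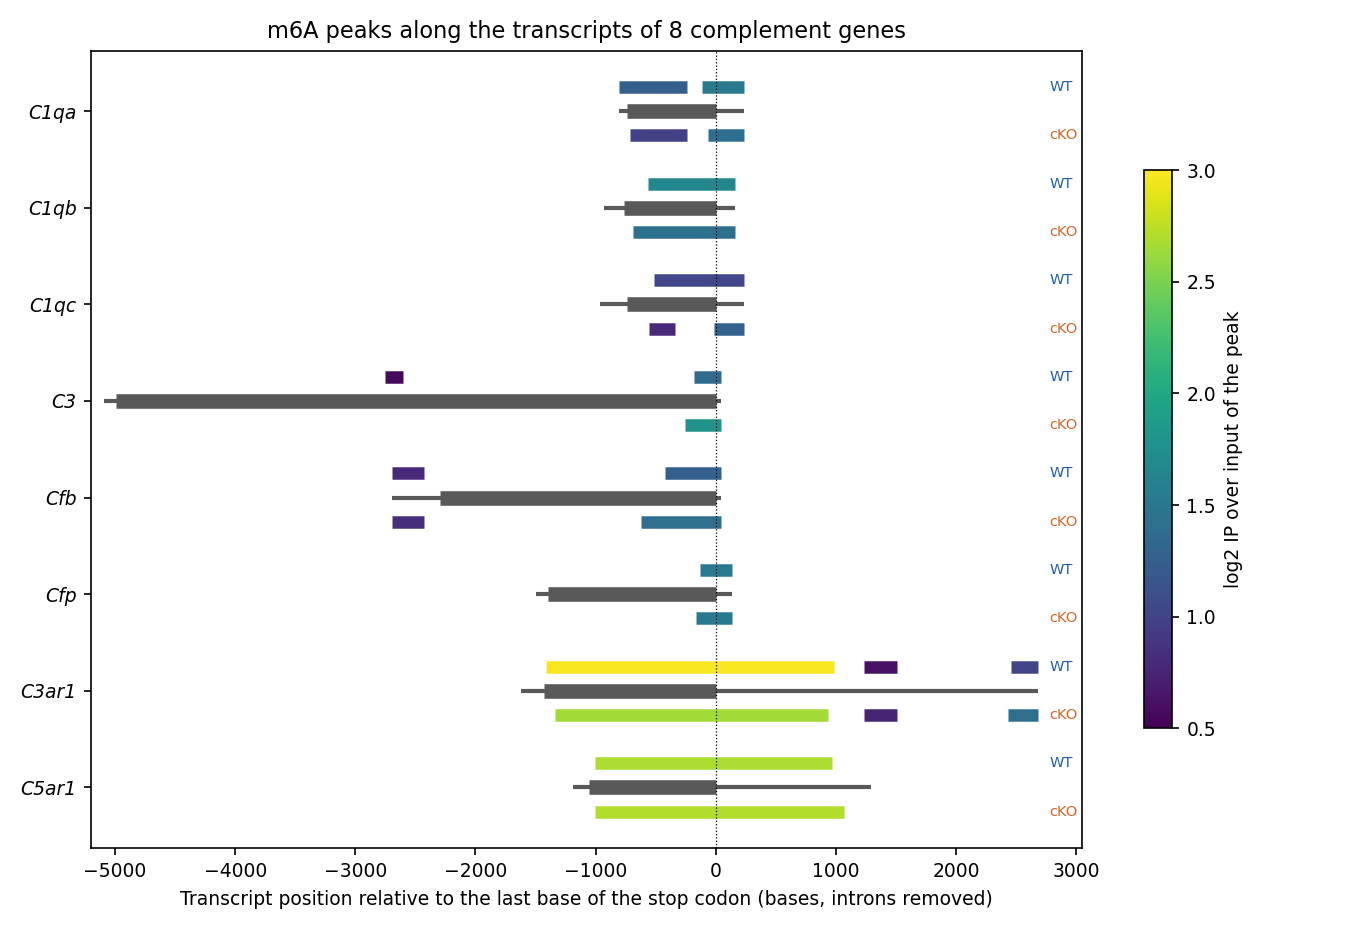
Peaks along 1 transcript of each of the 8 genes, with introns removed. The horizontal axis is the position in bases from the last base of the stop codon. Grey bars are transcripts, thick where coding. The coloured bar above each transcript is a WT peak and the one below a cKO peak, with the colour giving log2 IP over input. The brightest bars are those of C3ar1 (2.97 and 2.65) and C5ar1 (2.69 and 2.71), and the C1qc signal is 1 bar in the WT and 2 in the cKO.

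The authors label a peak by region, and these labels name only part of what the peaks cover. Of the 13 peaks in each genotype, 10 were labelled 3′ UTR. In both genotypes 8 of these 10 held the stop codon and only 2, both in C3ar1, lay whole in the 3′ UTR. In the WT list 6 of the 10 had more coding than 3′ UTR bases, and in the cKO list 5. C1qb is an example, with 565 coding and 160 3′ UTR bases under a label of 3′ UTR. Thus 8 of 13 WT peaks held a stop codon, against 19.8% of all WT peaks placed on coding transcripts. The share is given as a description, because long peaks and short 3′ UTRs make it higher.

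Peaks of the 8 genes were found at nearly the same places in both genotypes. Of the 13 WT peaks, 12 overlapped a cKO peak by at least 1 bp on the same strand, against 73.2% of all WT peaks, the exception being the coding peak of C3. All 13 cKO peaks overlapped a WT peak, against 71.3% of all cKO peaks. When the overlap had to cover 50% of both spans, 9 remained in each list, against 48.8% of all WT and 46.1% of all cKO peaks, and those of C1qb, C1qc and Cfp dropped out. Over the 11 pairs that matched singly, the cKO value was higher in 6 and lower in 5, with a median difference of 0.02. The cKO was lower by 0.13 and 0.26 log2 units at the C1qa peaks, by 0.25 at C1qb and by 0.32 at the main C3ar1 peak, and it was higher by 0.40 at C3 and at the 3′-most C3ar1 peak. No direction was shared by all 8 genes.

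The authors' deposited table of differential peaks, which compares the genotypes over 1 set of positions and lists only differences with a p below 0.05, holds 9 peaks in 6 of the 8 genes. C1qb and C5ar1 have none in it. Over all genes with a peak, 49.9% have a listed differential peak. Among the 9, the cKO value was lower at 4, against 51.1% of all peaks that the authors' deposited table lists. Its adjusted p was below 0.05 at 4 of the 9, against 53.3% of all. Nothing is read from these counts, since the genes were chosen with them known. No peak of the 8 genes differed by 1 log2 unit or more in that table. Each group is 1 library, so the authors' p-values, there and in the separate peak lists, hold no variation between mice or cultures. A small adjusted p therefore does not show that a difference between genotypes would recur.

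The 3 listed C1q peaks were all lower in the cKO, and none had an adjusted p below 0.05. The authors' deposited table gives the C1qa peak over the stop codon a WT value of 1.59 and a cKO value of 1.34, so -0.25 for the cKO minus WT, with adjusted p = 0.117. To the upstream C1qa peak the authors' deposited table gives 1.22 and 0.93 (-0.29, adjusted p = 0.0563). For C1qc the table lists a stretch of 125 coding bases at 136890104 to 136890228, with WT and cKO values of 0.86 and 0.48; the authors' deposited table has -0.37 and adjusted p = 0.113 for it. That stretch lies inside the 325 bases that separate the cKO peaks of C1qc. Listed peaks of about the strength of the C1qa peaks were mostly higher in the cKO, and those of about the C1qc strength were split more evenly. Within 0.25 log2 units of the mean of each C1q peak, 34.6% and 33.1% of all listed peaks were lower for C1qa and 45.6% for C1qc.

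The C3, Cfb and Cfp peaks at the 3′ end were all higher in the cKO. By the authors' deposited table, C3 rose from a WT value of 1.30 to 1.80 (0.51, adjusted p = 3.79e-12) and Cfb rose from 1.22 to 1.55 (0.33, adjusted p = 9.89e-29). For Cfp the authors' deposited table has 1.47 and 1.69 (0.23, adjusted p = 0.0623), although its values in the separate lists, over peaks of 275 and 306 exonic bases, were nearly equal. Among listed peaks of like strength 39.0% were lower for C3, 31.5% for Cfb and 40.9% for Cfp, so the direction of these 3 was also that of most such peaks.

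C3ar1 had differential peaks in both directions within 1 transcript. By the authors' deposited table its main peak fell by 0.36, from 2.93 to 2.57, with adjusted p = 4.44e-58. The 3′-most peak rose by 0.51, from 0.97 to 1.48, for which the authors' deposited table has adjusted p = 0.00641. Between them lay a peak with 0.48 and 0.72, to which the authors' deposited table gives adjusted p = 0.119. At the strength of the main peak, 89.5% of the 687 listed peaks were lower in the cKO, and at the strengths of the weaker ones 29.4% and 46.2% were. Strong listed peaks were mostly lower. The direction at the main and the 3′-most C3ar1 peaks was that of most listed peaks of their strength, while at the middle peak the split was near even. How IP was scaled to input is not given in the sources used here, so these values cannot show whether m6A over all sites together was lower in the cKO.

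**Figure D2:**
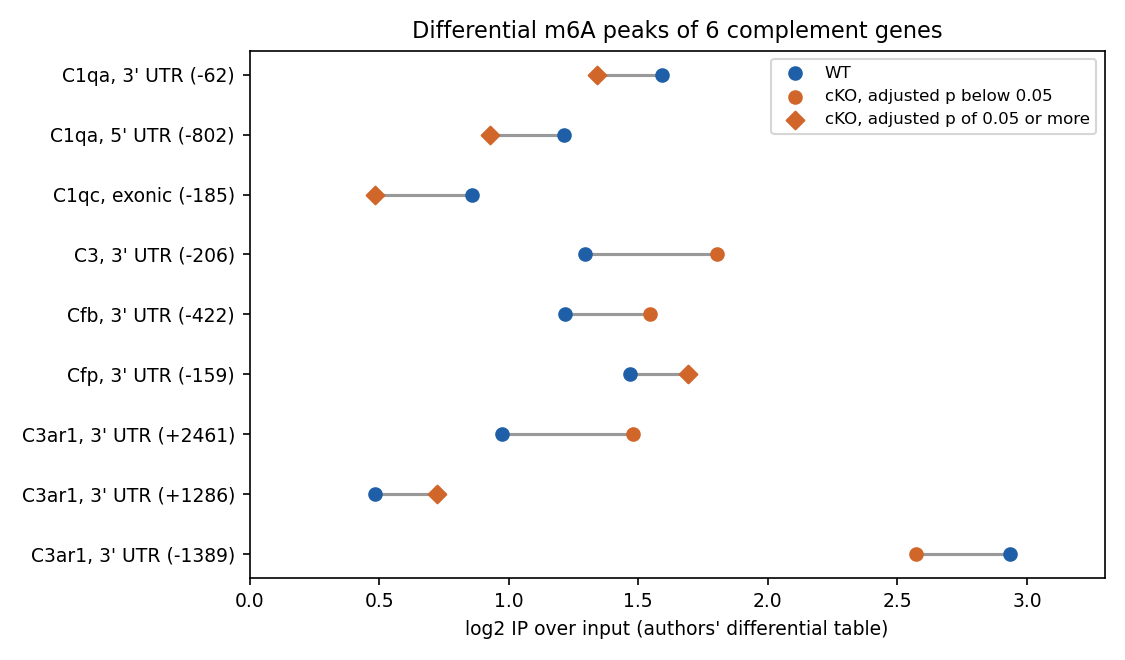
The 9 differential peaks of 6 complement genes in the authors' deposited table. The horizontal axis is log2 IP over input; blue points are the WT and orange points the cKO, with diamonds where the adjusted p was 0.05 or more. Labels give the authors' region and the distance in bases of the peak's first base from the last base of the stop codon. The 3 C1q peaks and the main C3ar1 peak (2.93 to 2.57) are lower in the cKO and the other 5 are higher.

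Input levels were lower in the cKO for all 6 of the 8 genes with a value, most of all for C1q. The input library measures the transcript itself, as FPKM, a level per unit of transcript length. Values are held only for genes with a listed differential peak, so C1qb and C5ar1 were not analysed here at this level. C1qa stood at 73.1 FPKM (WT) and 28.4 FPKM (cKO), so that the WT level was 2.58 times the cKO level. C1qc stood at 20.8 FPKM (WT) and 11.2 FPKM (cKO), a ratio of 1.86. Both measured C1q chains were thus lower in the cKO library, C1qa by more, and the level of C1qa relative to C1qc went from 3.51 to 2.53.

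Among the other genes, Cfb had the highest level, with 541 FPKM in the WT input and 403 FPKM in the cKO input, and was above 99.4% of the 6079 genes with a mean of at least 1 FPKM. C3 was at 149 and 144 FPKM, C3ar1 at 113 and 101, and Cfp at 90.1 and 62.1. By level the order in the WT was Cfb, C3, C3ar1, Cfp, C1qa, C1qc, and the cKO kept it. With 1 library per genotype no spread is known for any of these levels, so it cannot be said which neighbours in the order differ beyond it.

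On the log2(FPKM + 1) scale, which understates the change of low genes, the difference of the cKO from the WT was -1.34 for C1qa, -0.84 for C1qc, -0.53 for Cfp, -0.42 for Cfb, -0.16 for C3ar1 and -0.05 for C3. Their median was -0.48, beside -0.02 over all 6079 genes, of which 54.2% were lower. C1qa was the 12th lowest of these genes and C1qc the 39th lowest. C1qa was the only 1 of the 6 at least 2-fold lower, a size reached by 0.428% of all genes. It was also the only 1 of the 6 that the authors' deposited table calls different in the input, which it does for 0.616% of all genes with a value. That call rests on an unadjusted p of 0.0423, and the q there is 1, as it is for the other 5 genes in the authors' deposited table. Because the genes were chosen with these values known, nothing is read from the counts.

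Lower input and m6A enrichment did not go together in 1 way. The input is the denominator of the enrichment. For C1qa both the input and the values of its peaks were lower in the cKO, without an adjusted p below 0.05 at either peak in the authors' deposited table, while for Cfb the input was lower and the 3′ peak higher. For C1qc the separate lists give no direction over like stretches. The WT value of 1.02 is for 750 bases, and the cKO values of 1.29 and 0.79 are for peaks of 250 and 221 exonic bases that overlap it. The authors' deposited table has -0.37 for the coding stretch of C1qc (adjusted p = 0.113). Cfp was nearly equal in the separate lists (1.52 and 1.51), whereas the authors' deposited table has 0.23 for it (adjusted p = 0.0623). C3 had nearly equal input and a difference in enrichment of 0.51 in the authors' deposited table. The part of the input level in the enrichment values was not tested.

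**Figure D3:**
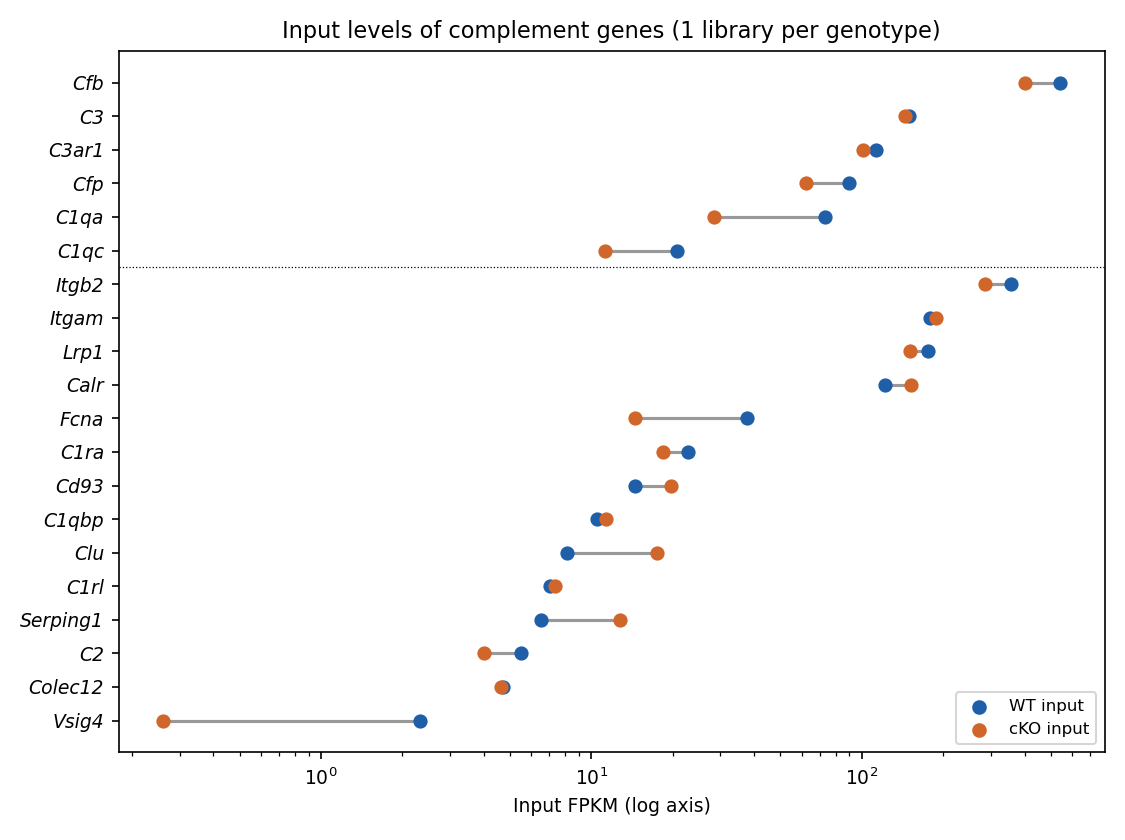
Input FPKM, on a log axis, of the 20 complement genes with a mean of at least 1 FPKM, 1 library per genotype. Blue points are the WT input and orange points the cKO input. The 6 genes above the dotted line belong to the 8 described here; C1qa (73.1 to 28.4) is the widest pair among them, and Fcna and Vsig4 below the line also have the orange point far to the left.

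A list of 57 complement genes, written with earlier results of these data known, sets the 8 among the rest of the system. Peaks were found in 33 of the 57 in the WT and 32 in the cKO, with 22 in neither. Over the whole lists, 13833 genes had a peak in the WT and 13994 in the cKO. Their share of all annotated genes was not computed, so nothing is read from the counts for the 57. Genes of the list with no peak in either genotype included most terminal components (Hc, C6, C7, C8a, C8b and C9), several of which come mainly from the liver. Of the 57 genes 23 had an input value and 20 reached a mean of 1 FPKM, of which 13 had a lower cKO level and 7 a higher one; the median difference was -0.19. Without the 8 genes the count was 7 lower and 7 higher and the median 0.02, close to the -0.02 of all genes.

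In the lectin pathway, which starts complement from sugars on microbes, Fcna, the gene of ficolin A, stood at 37.6 FPKM (WT) and 14.5 FPKM (cKO), or -1.32 on the log2(FPKM + 1) scale. As for C1qa, the input call of the authors' deposited table for Fcna rests on an unadjusted p, here 0.0413. Its 3′ UTR peak rose by 0.40, where the authors' deposited table has adjusted p = 0.0347, so its input difference was close to that of C1qa (-1.34), at a lower level, and the sign of its peak difference was the opposite. Vsig4, a macrophage receptor for fragments of C3, stood at 2.33 FPKM (WT) and 0.26 FPKM (cKO), or -1.40. Its 4 WT peaks had no counterpart in the cKO list. The authors' deposited table lists differences of 1.95, 2.95 and -4.98 for it, with adjusted p = 0.162, 0.0699 and 0.0988.

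Both regulators with a usable input value were higher in the cKO, and the authors' deposited table calls neither different in the input. Clu, the gene of clusterin, which blocks the terminal complex, was at 8.11 and 17.4 FPKM (1.02), and Serping1, the inhibitor of the C1 proteases, at 6.52 and 12.8 (0.87). Both are secreted, and they were the only 2 regulator genes of the list with a mean of at least 1 FPKM. By the authors' deposited table the Serping1 3′ UTR peak rose from 0.28 to 1.58, with adjusted p = 4.57e-05. That of Clu had 1.18 and 1.60, and the authors' deposited table gives it adjusted p = 0.123.

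Of the 11 classical-pathway genes of the list only 5 had an input value. Those beyond C1q, namely C1ra, C1rl and C2, differed less in the input than C1qa and C1qc. C1ra, a protease that C1q carries, was at 22.8 and 18.4 FPKM, and its relative C1rl at 7.06 and 7.35. Their strong 3′ UTR peaks fell from 2.52 to 2.15 and from 3.14 to 2.38, for which the authors' deposited table has adjusted p = 1.52e-04 and 5.03e-11. At the strength of the main C3ar1 peak, 89.5% of all listed peaks were lower in the cKO, as given above. That share was not computed at the strengths of the C1ra and C1rl peaks, and the C1ra peak is weaker than that of C3ar1. C2, the neighbour of Cfb and the classical-pathway counterpart of factor B, was at 5.50 and 4.00 FPKM. The listed 3′ UTR peak of C2 went the other way, from 1.01 to 1.28, for which the authors' deposited table has adjusted p = 0.151.

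Receptors and binding partners beyond C3ar1 and C5ar1 went both ways. Itgb2 (357 and 285 FPKM) and Lrp1 (175 and 151) were lower in the cKO, and Itgam (179 and 188), Calr (122 and 153), Cd93 (14.5 and 19.7) and C1qbp (10.5 and 11.3) were higher. Itgam and Itgb2 form complement receptor 3. The 4 listed Lrp1 peaks were higher in the cKO by 0.41 to 0.63. Over the 31 listed peaks of the 57 genes, 20 had the higher value in the cKO and 11, or 35.5%, the lower, against 51.1% lower over all listed peaks. The authors' deposited table gives 12 and 6 of these an adjusted p below 0.05, and 53.3% of all its peaks.

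**Figure D4:**
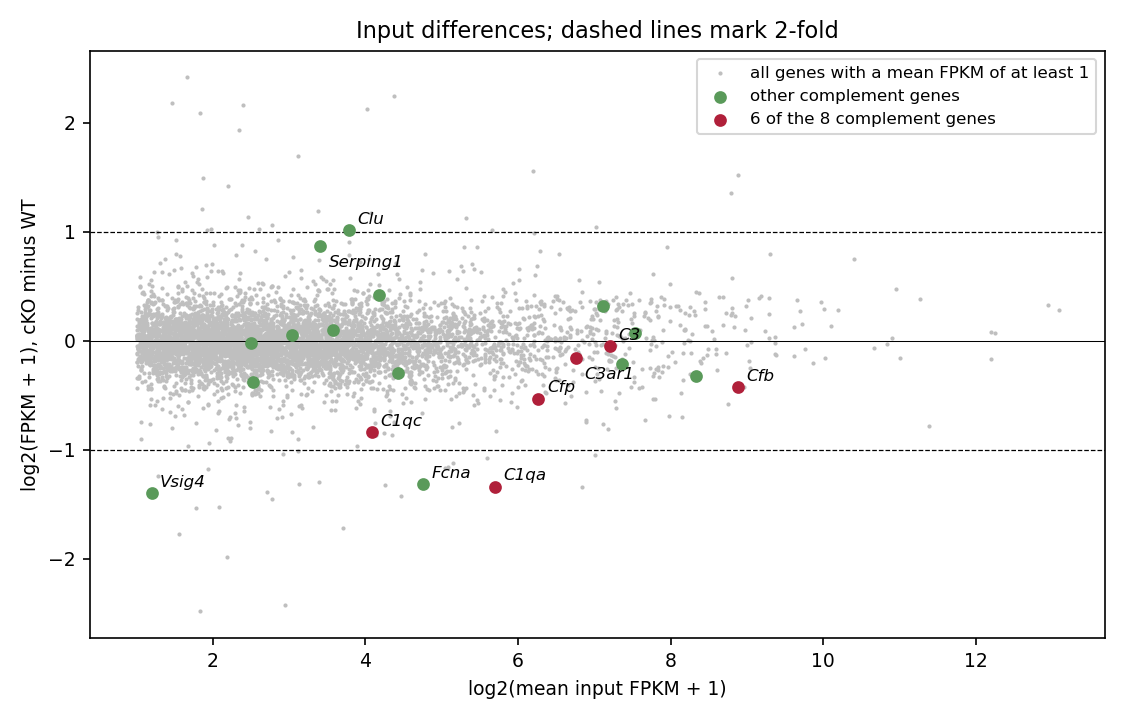
Difference of log2(FPKM + 1), cKO minus WT, against the log2 of the mean input FPKM plus 1, for 6079 genes (grey). Red points are the 6 complement genes with a value among the 8 and green points the other complement genes; dashed lines mark 2-fold. C1qa (-1.34) lies below the lower line with Fcna and Vsig4, C1qc (-0.84) lies above it, and Clu (1.02) reaches the upper line.

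The genes nearest to the mean of C1qa and C1qc over the 2 input libraries, by Euclidean distance on the log2(FPKM + 1) scale, were Gm11847 (44.5 FPKM in the WT and 19.3 in the cKO, distance 0.21), the chemokine gene Cxcl1 (45.8 and 20.0, 0.26), Fcna (0.29), Fam102b (31.7 and 19.7, 0.33) and the transcription factor gene Irf1 (47.7 and 21.4, 0.37). With 2 libraries this likeness is only of 2 numbers per gene.

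Values on the cells and labels bear on all of these results. The summed level of the 7 macrophage markers with a value, of 8, was 4871 FPKM in the WT and 3311 in the cKO, with 5 of the 7 lower. Most of that difference was in Lyz2 (3393 and 1980), the lysozyme M gene whose promoter drives the Cre of the cKO, and the other 6 summed to 1479 and 1330 FPKM. Adgre1 (220 and 162), Mertk (11.6 and 6.29), Cd68 (695 and 634) and Cd14 (362 and 324) were lower, and Fcgr1 (11.1 and 15.8) and Itgam were higher. Mesenchymal markers, 7 of 8 with a value, summed to 112 and 200 FPKM, with 6 higher in the cKO. The epithelial marker Krt19 was at 7.05 FPKM in the WT input and 10.8 FPKM in the cKO input, and no marker with a value was at 0. For markers of neutrophils 1 of 6 had a value (sum 12.3 and 13.7 FPKM), for T and B cells 1 of 5 (0.97 and 0.42), and for dendritic cells 0 of 5. Values are held only for genes with a listed differential peak, so a marker without a value is not shown to be absent. Peaks were found in 3 of 5 dendritic and 5 of 8 epithelial markers in each genotype. In the WT and the cKO they were found in 2 and 3 of 6 neutrophil markers and in 1 and 2 of 5 T and B cell markers. Tumour and mesenchymal cells can also express C3, Clu and Serping1, and the part of cell composition in the differences was not tested. In bulk RNA, fewer cells of a type and less RNA per cell cannot be told apart. Mettl3 itself had 2 WT and 4 cKO peaks, no differential peak and no input value here, and these tables therefore give no check of the genotype.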

How the data were processed

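The data are 4 libraries, 1 per group (WT IP, WT input, cKO IP, cKO input), so there is no replicate error, and no p-value was computed. Poly(A) RNA from 50 µg of total RNA was fragmented before the pulldown, per the labels. mm10 is the build named by the submitters' processing notes, which also name fastp, HISAT2, HOMER, ChIPseeker, StringTie and edgeR without roles. Which of them called peaks, and how IP was scaled to input, is not given in the sources used here. Per the file headers, the deposited tables give the log2 of IP over input per peak, the authors' p-value, adjusted p-value or q-value, and FPKM of the input libraries. The tables hold no counts, and the depth is unknown.

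Members and lists were chosen with earlier results of these data known. Deposited starts count from 0 (1 below an exon start at 3795 WT peaks, equal to it at 70) and are given 1-based. Peaks were placed on the exons of 1 GENCODE M21 coding transcript per gene, and peak sets compared with bedtools 2.31.1. Input differences are log2(FPKM + 1), cKO minus WT, where the mean of both libraries reached 1 FPKM. Functions were tested on simulated data. Named genes are the 8 members, complement genes with an input value or differential peak, the 5 genes nearest to C1q, and Mettl3. Outside this rule, terminal components without peaks, Cr1l, Cd55, Gm20547 and cell markers were named after their values were seen. Below 1 FPKM, values of Masp1, Cd46 and C8g were left out of medians. Alternatives were other pseudocounts, filters, centring, thresholds, overlaps and motifs.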

Additional observations from a re-analysis of the deposited data

How the results depend on the processing

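Of 40 alternative values 34 kept their direction and stayed within 1.5 times the value reported, and none changed sign. This tally is no measure of how firm the results are, because some alternatives could not change them. The same 6 of the 8 genes passed every filter on FPKM. All peaks of the 8 genes in the separate peak list of each genotype had an adjusted p far below 0.05. Another 17 of the 34 were changes of pseudocount or centring for single genes. The differential peaks of the 8 genes went from 5 higher and 4 lower to 3 and 1 where the authors' deposited table has an adjusted p below 0.05, and to 0 and 0 at an absolute difference of at least 1. The median input difference of the complement list was -0.10 without a filter on low values, since 3 genes near 0 FPKM then enter it, and -0.16 to -0.19 under the others. That of the 8 genes stayed between -0.46 and -0.48. The C3 input difference of -0.05 became -0.03 after centring on the median of all genes, a shift of 0.02. The search for motifs over whole spans with introns was not run, because no genome sequence was used here. With 1 library per group no library could be left out, and no depth is known, so none of these values has an interval.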

Other observations

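Masp1, the gene of a protease of the lectin pathway, had 3 WT peaks, the strongest at 3.42, and 0 cKO peaks, at an input of 0.16 FPKM in the WT and 0.09 in the cKO. Its 1 listed differential peak had -5.77 with adjusted p = 0.0220 in the authors' deposited table. C8g was listed at 0 in the WT input and at 0.31 FPKM in the cKO. Its 5′ UTR peak differed by -2.94 with adjusted p = 0.0524 in the authors' deposited table. Cd46 had an input of 0.10 and 0.06 FPKM. The number of reads behind these peaks is unknown. Over all WT peaks, 73.2% overlapped a cKO peak. Cr1l, the gene of the mouse membrane regulator Crry, had 8 WT and 2 cKO peaks, with the strongest at 3.03 and 3.04, and Cd55 had 5 and 3, with the strongest at 2.98 and 1.30. Neither has a listed differential peak or an input value, and both were named after their values were seen.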
